A study of Homo sapiens with 4 samples.

Results

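Cells recovered from ovarian metastases were compared with cells recovered from stomach wall tumours of the human gastric carcinoma line SNU-16, and the genes described are those whose ovary minus stomach difference kept its direction over 2 rounds of implantation. The comparison covered all 4 arrays of the series and 14547 tested genes of 18417 with a probe set (the group of probes that measures a transcript) naming a single gene, with the probe set of the highest mean standing for each gene. Of these, 19 genes differed 1.5-fold or more with equal sign in each round, 13 higher and 6 lower in the ovary lines, and 176 genes differed with equal sign by 0.32 log2 units or more, called the 0.32 threshold below.

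Gastric carcinoma spreads to the ovary in patients, and such tumours are known by the name of Krukenberg. A carcinoma cell that settles in another organ keeps most of the transcripts of its line of origin, while secreted products, surface antigens and stress responses are among the features that differ between lesions. Ovarian tissue lies outside the acid and mucus of the stomach, where trefoil peptides and mucins protect the epithelium, and cells at any site show fragments of their own proteins to T cells on MHC class I molecules.

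SNU-16 cells were implanted orthotopically, that is into the stomach wall, of BALB/c nude mice, which lack mature T cells and so accept human tumours. The stomach tumour and the ovarian metastasis of round 1 were dissociated and cultured for 7 days, and the cultured cells were implanted again. Round 2 sampled a stomach tumour grown from the round 1 stomach line and an ovarian metastasis grown from the round 1 ovary line. The labels name no other treatment or genetic change between the groups, and genetic differences between the lines were not measured. The RNA came from cell pellets. For round 2 the labels give dissociation and no time in culture. Each combination of site and round had 1 array, so each site had 2, and a round 2 line descended from the round 1 line of its site. The labels do not say how many mice or tumours stand behind an array, so any p-value measures only the spread between these arrays. The free-text description of the round 2 stomach array names the ovary as the site cultured, and that of the round 2 ovary array ends with the stomach. Titles and tissue labels were followed. Were the round 2 arrays exchanged, the genes given below as agreeing would oppose each other and the reverse.

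All values are log2 signals. A difference is ovary minus stomach in log2 units within a round, and the mean difference carries limma's standard error (SE). The signal minimum, the 30th percentile of all rows, was 5.64, and the arrays had medians of 6.81 to 6.84. The defining markers of an epithelial carcinoma line were high on every array: EPCAM read 11.82 to 12.09, KRT8 12.19 to 12.69 and CDH1 11.50 to 11.63. The mesenchymal filament VIM stayed under the minimum, at 4.89 to 5.09. FGFR2, amplified in SNU-16, read 12.90 to 12.94. The probes are of human sequence and would read mouse cells only through cross-hybridisation. PTPRC of leukocytes read 3.97 to 4.11, DCN of fibroblasts 3.74 to 4.04, PECAM1 of endothelium 4.85 to 4.90 and CYP19A1 of ovarian granulosa cells 4.51 to 4.70, all under the minimum. These single markers do not stand for their lists. Mean levels were above the minimum for 9 of 16 leukocyte, 7 of 13 fibroblast, 5 of 11 endothelial and 7 of 15 ovarian markers. In RNA of a whole cell pellet, fewer cells of a kind and less RNA per cell cannot be told apart.

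The question of the comparison was which transcripts differ between metastatic and stomach lines. The 19 genes past 1.5-fold were 0.131% of those tested, against 22 genes that were as far apart in opposite directions. Higher genes made up 0.0894% and lower genes 0.0412% of the tested genes. Within single rounds 295 genes passed 1.5-fold in round 1 (133 higher and 162 lower) and 178 in round 2 (117 higher and 61 lower). The agreeing genes were 6.44% of the round 1 genes and 10.7% of the round 2 genes. Past 2-fold there was 1 agreeing gene, ELOVL5, higher in ovary (0.00687% of tested genes) with its stomach arrays under the signal minimum, and there were 2 opposing genes. At the 0.32 threshold the agreeing genes outnumbered the opposing ones, 176 (1.21% of tested genes) to 101. Of the 176, 97 were higher (0.667%) and 79 lower (0.543%). Counting any size, 7276 genes (50%) had the same sign in both rounds, 6556 had opposite signs and 715 had a difference of exactly 0 in a round. Pearson's r of the difference between the rounds was 0.101 across genes, which are not independent replicates. With the minimum set at the 50th percentile instead, 7 of the 13 higher genes were left because the others were dim.

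**Figure D1:**
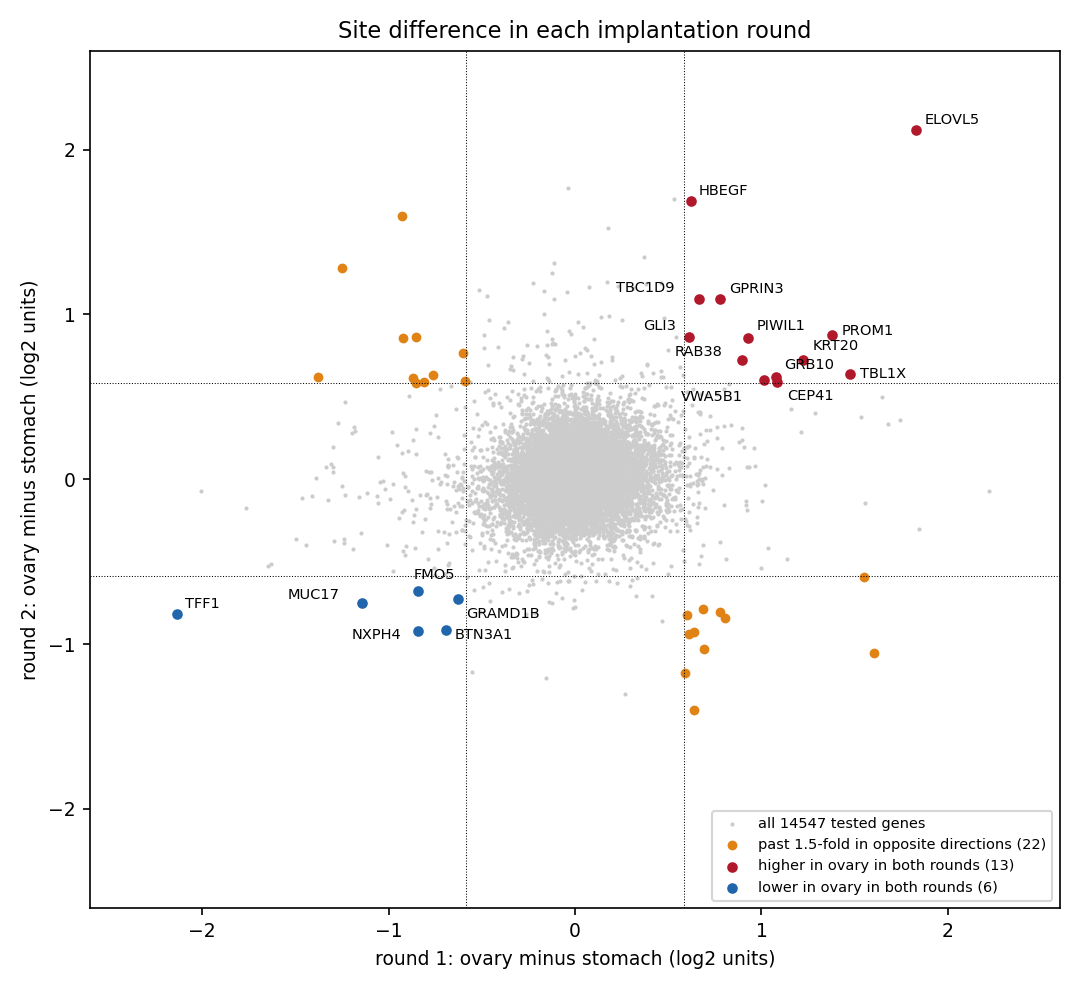
Ovary minus stomach difference in round 1 (horizontal, log2 units) against round 2 (vertical, log2 units) for the 14547 tested genes, each a point. Dotted lines mark 1.5-fold; the 13 red and 6 blue named genes lie past them in the same direction and the 22 orange genes in opposite directions, and ELOVL5 stands alone at the upper right.

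The test across all genes called none of them. Limma called 0 of 14547 genes (0%) at an adjusted p under 0.05, and 378 had an unadjusted p under 0.05, where p-values spread evenly would give 727.4. With the round as a block limma again called 0, with 916 genes under an unadjusted 0.05. The adjusted p was 0.578 for ELOVL5 and 1 for each of the other 18 genes, and with the block 0.122 for ELOVL5 and 0.654 to 0.768 for the others. What follows are therefore measured levels and not calls. In 15 of the 19 genes both arrays of a site lay beyond both arrays of the other. The exceptions were GPRIN3, GRB10, GLI3 and VWA5B1. Of all tested genes, 13.4% had both ovary arrays above both stomach arrays and 11.2% had them below. The 19 genes were picked for wide gaps between sites in each round, which makes such separation likely. The count of 15 is therefore a description only.

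**Figure D2:**
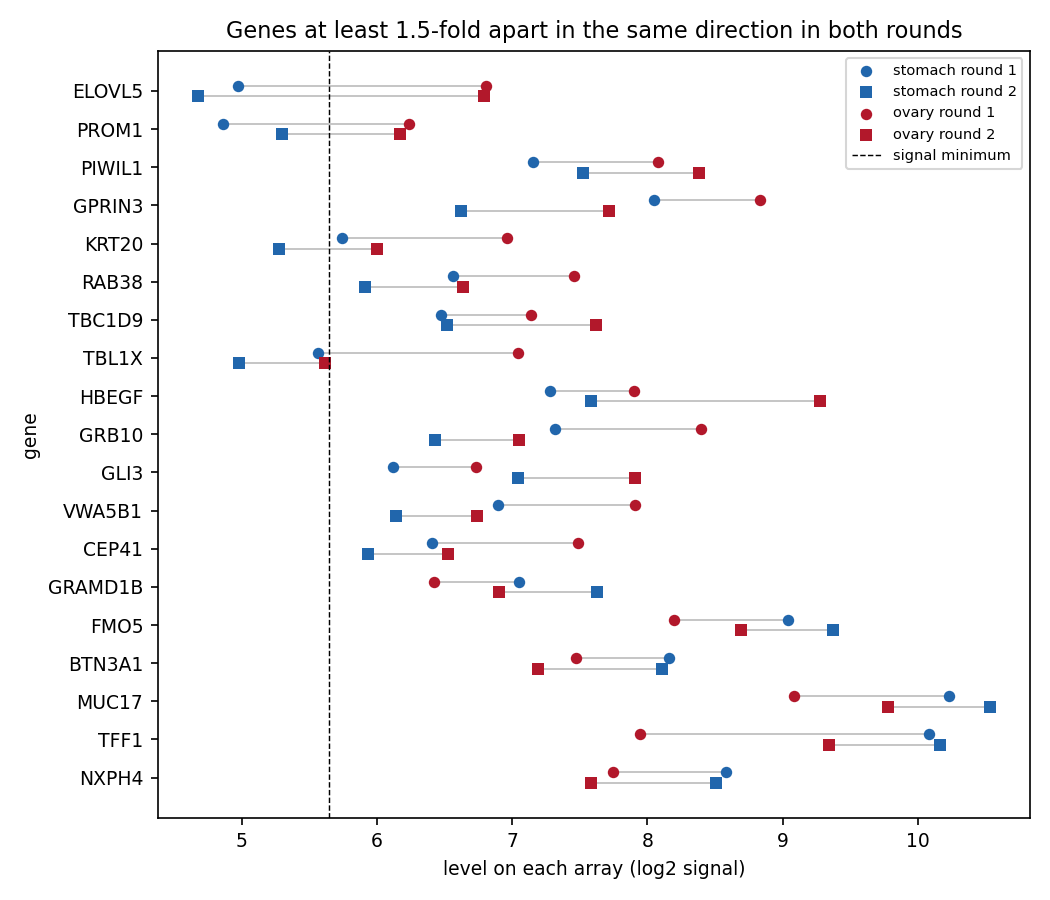
Log2 signal on each array for the 19 genes, with stomach in blue, ovary in red, round 1 as circles and round 2 as squares; grey lines join the sites within a round and the dashed line is the signal minimum of 5.64. The stomach values of ELOVL5 and PROM1 lie left of the dashed line in both rounds, whereas TFF1 and MUC17 lie far to its right on every array.

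The gene furthest apart on the higher side was a fatty acid enzyme. ELOVL5, an elongase of polyunsaturated fatty acids, read 4.98 in stomach and 6.81 in ovary in round 1 and 4.67 and 6.79 in round 2. Both ovary arrays stood near each other and well above both stomach arrays, which were under the minimum. The differences of 1.83 and 2.12 were thus measured from below the minimum; with stomach set at the minimum, the ovary mean was at least 2.23-fold higher. Of its family, ELOVL1 (11.19 to 11.28) and ELOVL6 (9.86 to 10.11) differed by at most 0.14 within a round, ELOVL7 had opposite signs (-0.24 and 0.42), and ELOVL2, ELOVL3 and ELOVL4 were under the minimum. FADS1, a desaturase that works in the same pathway of long-chain fatty acids, was at 8.01 and 8.53 in round 1 and 7.74 and 8.10 in round 2. Its ovary arrays were above its stomach arrays in each round. Of the 21 tested elongases and desaturases these 2 genes were higher past the 0.32 threshold and none passed lower. Of all tested genes 0.667% passed higher and 0.543% lower. ELOVL5 was tested only through its ovary values. The list's median difference was 0.0079 and -0.013 in the rounds.

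PROM1, which encodes the pentaspan membrane protein CD133, read 4.86 in stomach and 6.24 in ovary in round 1 and 5.30 and 6.17 in round 2. The sites did not overlap, but both stomach values were under the minimum, against which the ovary mean was at least 1.48-fold higher. Its relative PROM2 went against it in round 1, with -0.63, and stood at 0.04 in round 2. PIWIL1, the Argonaute protein of germline small RNAs, read 7.15 and 8.08 in round 1 and 7.52 and 8.38 in round 2, a mean difference of 0.89 (SE 0.18) at levels above the minimum on every array. Among its paralogs PIWIL4 differed by 0.29 and -0.01 and PIWIL2 and PIWIL3 were under the minimum. ZFP42, a marker of pluripotent cells, was at 4.59 and 5.05 in round 1 and 5.92 and 7.11 in round 2, so the step between rounds was wider than that between sites, and without the round 2 ovary array its difference was -0.20. Of 18 tested stem cell associated genes 3 were higher past the 0.32 threshold (PROM1, PIWIL1 and ZFP42) and none lower. Over all tested genes 0.667% were higher. PIWIL1 alone of the 3 was above the minimum on every array. PROM1 and ZFP42 had stomach means of 5.08 and 5.25, under the minimum, and were tested only through their ovary values. The count is therefore a description only.

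HBEGF, a membrane-anchored ligand of the EGF receptor, read 7.28 in stomach and 7.90 in ovary in round 1 and 7.59 and 9.27 in round 2. All ovary values were above all stomach values, with a much wider step in round 2 (3.22-fold) than in round 1 (1.54-fold). ERRFI1, a feedback inhibitor of the receptor, was at 10.90 and 11.70 in round 1 and 11.45 and 11.77 in round 2. NRG4, a ligand of ERBB4, had the opposite direction, with 8.30 and 7.81 in round 1 and 8.70 and 8.15 in round 2. None of the other ligands above the minimum passed the 0.32 threshold in both rounds: EREG differed by 0.18 and 0.25, TGFA by -0.34 and -0.13 and NRG2 by -0.18 and 0.03. The receptors EGFR (10.61, 10.29, 10.78 and 10.71 in the order stomach and ovary of round 1, then of round 2), ERBB2 and ERBB3 read lower in ovary in each round, none past the 0.32 threshold. Of the 9 tested genes of this list 2 passed higher and 1 passed lower, where 0.667% and 0.543% of all tested genes did.

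Of the other genes on the higher side, TBC1D9, a Rab GTPase-activating protein, read 6.47 and 7.14 in round 1 and 6.52 and 7.62 in round 2, and RAB38, a Rab of lysosome-related organelles, 6.56 and 7.46 and then 5.91 and 6.64. The sites of TBC1D9 were well separated, while the round 2 ovary value of RAB38 lay only 0.07 above its round 1 stomach value. TBL1X, a subunit of the NCoR corepressor complex, was at 5.57 and 7.04 in round 1 and 4.98 and 5.62 in round 2, so 3 of its 4 values were under the minimum. Its paralog TBL1XR1 read 10.68 to 10.88 on all arrays. GRB10, an adaptor of the insulin receptor, read 7.31 and 8.39 and then 6.43 and 7.05, GPRIN3 8.05 and 8.83 and then 6.62 and 7.71, and VWA5B1 6.90 and 7.91 and then 6.14 and 6.74. In these 3 genes the round 2 ovary value was below the round 1 stomach value, so the sites overlapped and only the pairing by round separates them. GLI3, a transcription factor of Hedgehog signalling, ran the other way over rounds, with 6.12 and 6.73 and then 7.05 and 7.91; GLI1 and GLI2 differed by -0.06 to 0.15.

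CEP41, a centrosome and cilium protein, read 6.40 and 7.49 in round 1 and 5.93 and 6.52 in round 2. It was the gene just inside the threshold on the higher side, and CFAP44, a flagellar axoneme protein (7.02 and 7.60, then 7.21 and 7.84), and ZNF711 (6.90 and 7.73, then 6.98 and 7.56) stood just outside. On the lower side FMO5 and GRAMD1B were just inside and ACY3 and HCP5 just outside. The second probe set of CFAP44 had the same direction in both rounds. DPP4, a brush border peptidase, read 9.13 and 9.73 and then 9.16 and 9.69, and DIO1, a deiodinase of thyroid hormone, 6.42 and 7.01 and then 6.38 and 6.91. In both genes the arrays of a site differed by far less than the sites. ID1, an inhibitor of differentiation induced by BMP signals, was at 8.55 and 9.04 and then 8.58 and 9.36, and ID2 and ID3 were also higher in ovary in both rounds by 0.11 to 0.63. SMAD9 (8.07 and 8.79, then 8.46 and 8.84) and the SMAD corepressor SKIL (7.62 and 8.05, then 7.66 and 8.10) were higher, and the ligand BMP4 (6.44 and 5.87, then 6.66 and 6.31) was lower. Of 24 tested TGF-beta and BMP genes 3 were higher past the 0.32 threshold and 1 lower, where 0.667% and 0.543% of all tested genes were.

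Among genes lower in ovary, secreted and surface products of the gastrointestinal epithelium stood out by size. TFF1, a trefoil peptide of gastric surface mucous cells, read 10.08 in stomach and 7.94 in ovary in round 1 and 10.16 and 9.34 in round 2. Both stomach arrays were nearly equal, and the ovary line was closer to them in round 2 (1.76-fold lower) than in round 1 (4.39-fold lower). TFF3, the intestinal trefoil peptide, showed 12.15 and 10.91 and then 11.80 and 11.41, and TFF2 differed by -0.32 and -0.10. All 3 trefoil genes thus had both ovary arrays below both stomach arrays. MUC17, a membrane mucin, read 10.23 and 9.08 in round 1 and 10.53 and 9.78 in round 2, and the sites did not overlap. MUC20 was at 7.32 and 6.85 and then 7.69 and 7.18. MUC1, MUC3A and MUC16 were lower in both rounds by smaller steps, whereas MUC12 was higher by 0.03 and 0.10 and MUC13 and MUC21 had mixed signs. SPINK1, a trypsin inhibitor, was at 6.34 and 5.80 and then 6.99 and 6.32. Over the 24 tested genes of trefoil peptides, mucins and secretory products, 5 were lower past the 0.32 threshold and none higher, where 0.543% of tested genes passed lower. Of those 24 genes, 18 were lower and 2 higher in both rounds at any size, where 24.7% and 25.3% of tested genes were, and the list's median difference was -0.39 and -0.10.

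Intestinal markers past the 0.32 threshold lay on both sides, with more lower than higher. KRT20, a keratin of intestinal and gastric surface epithelium, read 5.74 in stomach and 6.96 in ovary in round 1 and 5.28 and 6.0 in round 2, while the differences of KRT18 and KRT19 (levels of 11.65 to 12.18) were -0.36 to -0.01. The stomach mean of KRT20 was 5.51, under the minimum, so KRT20 was tested only through its ovary values. Besides KRT20 and DPP4, which were higher, the brush border protease MEP1A (9.51 and 9.10, then 9.70 and 9.26) and the antigen GPA33 (11.19 and 10.69, then 10.76 and 10.43) were lower, as were MUC17 and TFF3. Of 24 tested intestinal genes 2 were higher past the 0.32 threshold and 4 lower, where 0.667% and 0.543% of all tested genes were. At any size 3 were higher and 11 lower in both rounds, where 25.3% and 24.7% of all tested genes were. In 3 of the 24 both ovary arrays were above both stomach arrays and in 6 below, where 13.4% and 11.2% of all tested genes were. The transcription factors CDX1 and CDX2 had within-round differences of -0.16 to 0.08. Of 14 tested gastric genes TFF1 and PSCA (7.56 and 7.19, then 7.78 and 7.33) passed lower and none passed higher. The shares of all tested genes were 0.543% and 0.667%.

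NXPH4, a neurexophilin, a neuropeptide-like glycoprotein, had the largest smaller-of-the-rounds difference on the lower side. It read 8.58 in stomach and 7.74 in ovary in round 1 and 8.51 and 7.59 in round 2, a mean difference of -0.88 (SE 0.10), with the arrays of each site close together. NXPH2 differed by 0.01 and -0.08. FMO5, a flavin monooxygenase, read 9.04 and 8.20 and then 9.37 and 8.69; FMO1, FMO2 and FMO4 were under the minimum. GRAMD1B, which carries cholesterol from the plasma membrane to the endoplasmic reticulum, was at 7.05 and 6.42 and then 7.63 and 6.90, and its relatives GRAMD1A and GRAMD1C differed by -0.19 to 0.10. In both genes the sites were apart, by 0.35 and 0.15.

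Protein kinase A supplied another pair. The catalytic subunit PRKACB read 9.73 and 8.95 in round 1 and 10.05 and 9.56 in round 2, and the kinase's inhibitor PKIB 7.78 and 6.86 and then 7.83 and 7.39. Both were lower in each round with no overlap between sites, whereas PRKACA and PRKACG differed by -0.03 to 0.08. VNN1, a pantetheinase, was at 9.18 and 7.54 and then 9.80 and 9.29, DAB2, an endocytic adaptor, at 9.13 and 7.48 and then 9.71 and 9.18, and the death ligand TNFSF10 at 9.91 and 8.41 and then 9.98 and 9.61. In these 3 genes the round 1 ovary value was the low one and the round 2 ovary value lay close to the stomach values.

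BTN3A1, a butyrophilin that presents phosphoantigens to gamma delta T cells, read 8.16 in stomach and 7.47 in ovary in round 1 and 8.11 and 7.19 in round 2. BTN3A2 stood at 7.73 and 7.28 and then 7.48 and 7.05, and BTN3A3 at 6.83 and 6.53 and then 7.00 and 6.50. All 3 BTN3 genes had both ovary arrays below both stomach arrays, BTN2A2 differed by -0.12 and -0.05 and BTN2A1 by -0.13 and 0.20. The BTN3 genes are near-identical copies, so their probe sets may share signal. HCP5, a non-coding transcript of the MHC region, read 8.08 and 7.32 and then 8.13 and 7.55.

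Genes of peptide presentation on MHC class I read lower in the ovary lines. Of 14 tested genes none was higher in both rounds and 12 were lower, where 25.3% and 24.7% of all tested genes were. In 9 both ovary arrays were below both stomach arrays, where 11.2% of tested genes had that order. PSMB9, an immunoproteasome subunit, read 8.24 and 7.49 in round 1 and 7.91 and 7.38 in round 2. ERAP2, a peptide-trimming aminopeptidase, was at 5.96 and 5.61 and then 5.996 and 5.33. Both ovary values of ERAP2 were under the minimum, so it was tested only through its stomach values. PSMB9 and ERAP2 passed the 0.32 threshold, and the peptide transporter subunit TAP1 (9.66 and 8.86, then 9.56 and 9.32) and the light chain B2M (11.28 and 10.93, then 11.38 and 11.16) passed it in round 1 only. TAP2 and NLRC5, a transactivator of these genes, were lower in round 1 (-0.13 and -0.36) and higher in round 2 (0.23 and 0.30). Over the list the median was -0.34 and then -0.16, where the median over all tested genes was -0.0053 and 0.0076. The HLA heavy chain genes had no single-gene probe set and were not analysed here.

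Interferon-induced genes were more divided. Of 31 tested genes 19 were lower and 5 higher in both rounds, where 24.7% and 25.3% of all tested genes were. The list medians were -0.20 and -0.11. Past the 0.32 threshold 4 were lower and 1 higher, where 0.543% and 0.667% of all tested genes were. SAMD9 read 8.32 and 7.08 in round 1 and 9.27 and 8.91 in round 2, and its chromosomal neighbour SAMD9L, a related antiviral factor, 9.06 and 7.62 and then 9.85 and 9.45. Both sites also read higher in round 2 for this pair, so the sites overlapped, and without the round 1 ovary array the SAMD9 difference was 0.11. OAS3, an antiviral oligoadenylate synthetase, was at 8.74 and 8.41 and then 9.05 and 8.71, and UBA7, the activating enzyme for ISG15, at 6.69 and 6.23 and then 6.56 and 6.22. IFITM3, a membrane restriction factor, had the other direction, with 6.25 and 7.41 and then 5.50 and 5.93. ISG15, MX1 and PARP9, also interferon targets, had mixed signs. Leukocyte markers moved the same way by smaller steps. Of 9 tested, 7 were lower in both rounds and none higher, where 24.7% and 25.3% of all tested genes were. In 5 both ovary arrays were below both stomach arrays, where 11.2% of all tested genes had that order. None passed the 0.32 threshold, which is near the shares of all tested genes, 0.667% higher and 0.543% lower. The median level of all 16 leukocyte markers on the array was 5.89 and 5.82 in stomach and 5.88 and 5.75 in ovary. PTPRC, their defining gene, was under the minimum on every array, and the part of the other markers in these results was not tested.

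**Figure D3:**
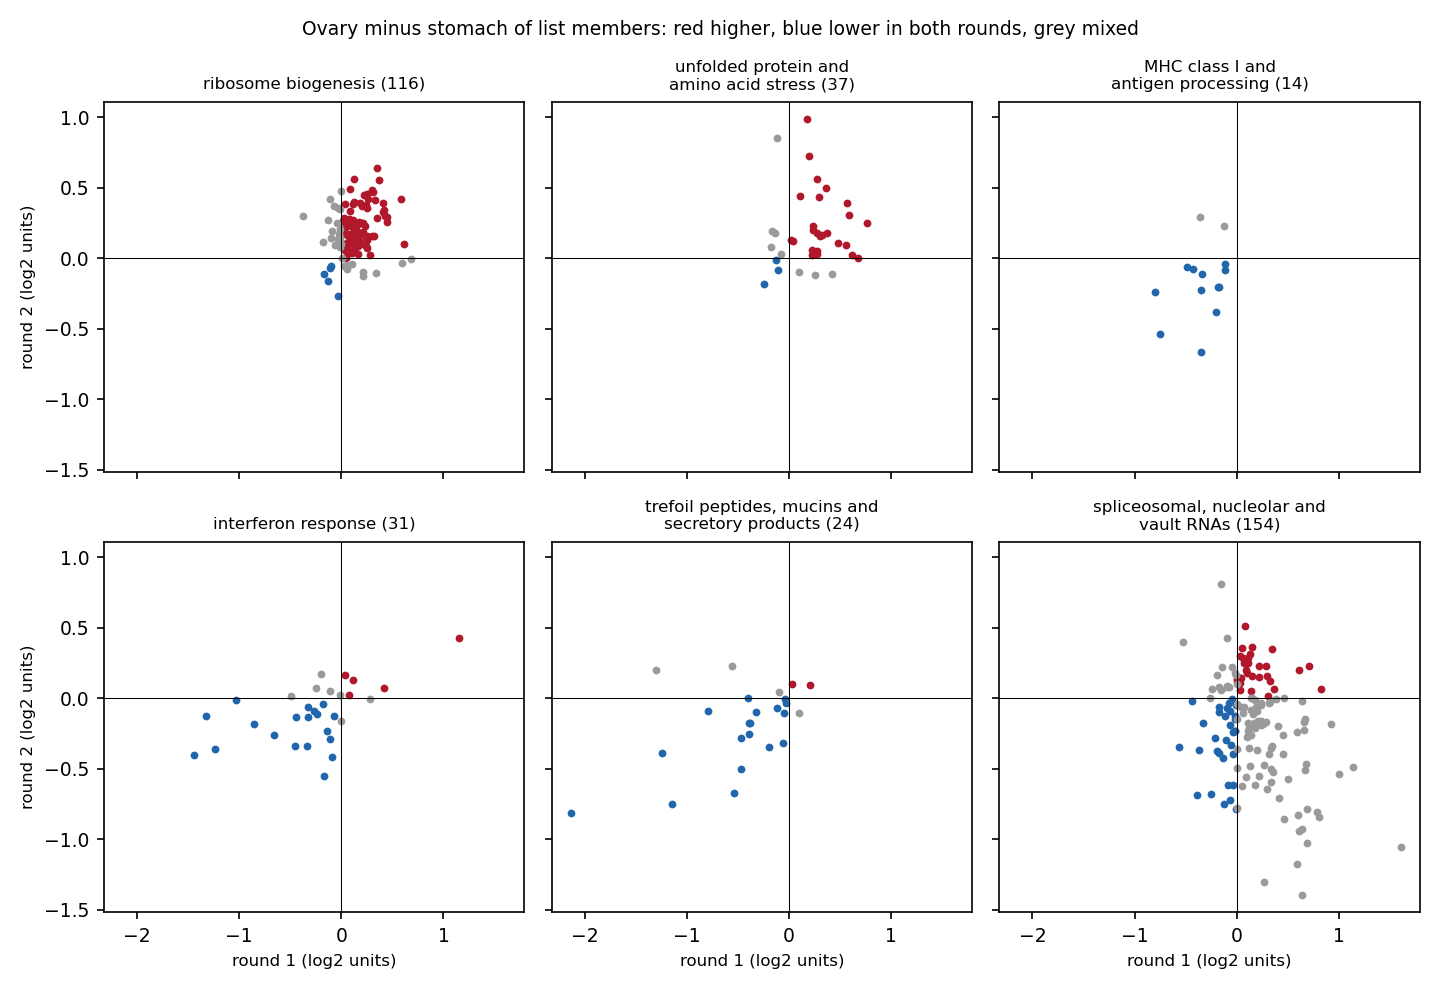
Ovary minus stomach difference in round 1 (horizontal, log2 units) and round 2 (vertical, log2 units) of the tested members of 6 gene lists, each point a gene, red where higher and blue where lower in both rounds and grey otherwise; numbers in brackets are tested members. Most of the 37 stress genes lie at the upper right and 12 of the 14 MHC class I genes at the lower left, while the small RNA panel extends to the lower right; the ribosome biogenesis and small RNA lists were drawn up after values had been seen.

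The proximal promoters of MHC class I and interferon-induced genes are shown because both lists read lower and are known to share an interferon-stimulated response element. Windows of 250 bases before to 50 bases after the start came from the RefSeq table of build GRCh38.p14, which held 11396 of the tested genes. Capitals mark the letters GAAANNGAA on either strand, where overlapping matches run together. TAP1 (chr6:32853655-32853954, minus strand) held 2 overlapping matches, the first 133 bases before the start. B2M (chr15:44711267-44711566, plus strand) also held 2 that overlap, from 144 bases before it. SAMD9 (chr7:93117930-93118229, minus strand) held 1 match at 136 bases, and OAS3 (chr12:112938224-112938523, plus strand) held 2, at 143 and 12 bases before the start. The windows of PSMB9 and ERAP2, the MHC class I genes past the 0.32 threshold, held no match, and neither did that of SAMD9L. Those windows are not printed. The PSMB9 window (chr6:32853942-32854241, plus strand) overlaps that of TAP1 only in their outermost bases, and the genes run in opposite directions. The TAP1 matches thus also lie before the start of PSMB9, but outside the window searched for it.
TAP1: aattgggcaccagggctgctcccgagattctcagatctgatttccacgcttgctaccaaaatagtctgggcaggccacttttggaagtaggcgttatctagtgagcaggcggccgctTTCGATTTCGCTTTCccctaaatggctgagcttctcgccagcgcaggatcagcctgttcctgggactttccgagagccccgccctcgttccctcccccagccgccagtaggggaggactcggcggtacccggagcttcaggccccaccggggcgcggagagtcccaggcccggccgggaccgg
B2M: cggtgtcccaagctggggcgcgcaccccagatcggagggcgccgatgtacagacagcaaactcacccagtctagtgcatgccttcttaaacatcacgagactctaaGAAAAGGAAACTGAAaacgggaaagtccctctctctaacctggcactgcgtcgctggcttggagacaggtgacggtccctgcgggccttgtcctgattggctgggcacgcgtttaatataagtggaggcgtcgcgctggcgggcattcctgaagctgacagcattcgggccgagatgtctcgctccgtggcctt
SAMD9: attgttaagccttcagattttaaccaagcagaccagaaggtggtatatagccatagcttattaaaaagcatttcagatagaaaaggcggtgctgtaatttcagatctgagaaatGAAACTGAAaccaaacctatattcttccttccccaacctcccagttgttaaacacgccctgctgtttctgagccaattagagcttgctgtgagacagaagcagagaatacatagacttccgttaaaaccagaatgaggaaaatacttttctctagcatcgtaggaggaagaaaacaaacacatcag
OAS3: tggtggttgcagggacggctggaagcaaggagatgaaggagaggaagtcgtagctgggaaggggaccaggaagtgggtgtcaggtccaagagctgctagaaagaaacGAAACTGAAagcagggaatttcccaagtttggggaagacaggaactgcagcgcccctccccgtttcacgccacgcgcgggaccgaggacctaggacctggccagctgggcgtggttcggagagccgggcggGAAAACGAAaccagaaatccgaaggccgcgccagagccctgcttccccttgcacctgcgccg
The letters were in 8 of 13 promoters of the MHC list (61.5%) and 16 of 24 of the interferon list (66.7%), against 5.91% of all tested-gene promoters. Among the genes past the 0.32 threshold the share was near that background, 3 of 48 promoters of lower genes (6.25%) and 6 of 82 of higher genes (7.32%). The other letters searched, TTCNNNGAA, the core of STAT-binding sites, were in 0 of 13 MHC promoters and 9 of 24 interferon promoters (37.5%), against 6.31% of all. A match describes letters in a window and is no evidence of binding.

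Genes induced by unfolded proteins and amino acid shortage read higher in the ovary lines. Of 37 tested genes 26 were higher and 3 lower in both rounds, where 25.3% and 24.7% of all tested genes were. In 23 both ovary arrays were above both stomach arrays, where 13.4% of tested genes had that order. SLC7A11, the cystine transporter, read 11.13 and 11.70 in round 1 and 11.25 and 11.64 in round 2. SESN2, a leucine sensor that restrains mTORC1, was at 8.98 and 9.34 and then 9.08 and 9.58. These 2 genes passed the 0.32 threshold, with both ovary arrays above both stomach arrays. The transcription factor ATF4 itself read 10.50 and 10.74 and then 10.40 and 10.63, and its target DDIT3 8.41 and 8.68 and then 8.44 and 9.005. TRIB3, a pseudokinase target, differed by 0.76 and 0.25, the asparagine synthetase ASNS by 0.37 and 0.18 and the glutathione-degrading enzyme CHAC1 by 0.20 and 0.72. The 3 genes lower in both rounds were the chaperone HSPA5 (-0.13 and -0.01), SEL1L of endoplasmic reticulum degradation (-0.11 and -0.08) and SHMT2 of serine metabolism (-0.24 and -0.19), and the chaperone HSP90B1 had mixed signs. Over the list the median was 0.25 and then 0.13.

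Promoters of stress genes are shown for the element that ATF4 binds with C/EBP partners, searched as TGATGCAA on either strand and in capitals. CHAC1 (chr15:40953221-40953520, plus strand) holds it 209 bases before the start. CARS1, a cysteinyl-tRNA synthetase (8.34 and 8.93 in round 1, 8.53 and 8.84 in round 2; chr11:3057374-3057673, minus strand), holds it across the start, from 2 bases before it.
CHAC1: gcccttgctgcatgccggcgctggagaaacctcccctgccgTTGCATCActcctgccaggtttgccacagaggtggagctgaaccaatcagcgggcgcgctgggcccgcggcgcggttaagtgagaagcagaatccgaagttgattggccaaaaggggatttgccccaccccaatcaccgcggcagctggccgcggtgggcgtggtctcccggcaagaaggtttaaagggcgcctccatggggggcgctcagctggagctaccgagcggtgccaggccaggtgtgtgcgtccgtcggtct
CARS1: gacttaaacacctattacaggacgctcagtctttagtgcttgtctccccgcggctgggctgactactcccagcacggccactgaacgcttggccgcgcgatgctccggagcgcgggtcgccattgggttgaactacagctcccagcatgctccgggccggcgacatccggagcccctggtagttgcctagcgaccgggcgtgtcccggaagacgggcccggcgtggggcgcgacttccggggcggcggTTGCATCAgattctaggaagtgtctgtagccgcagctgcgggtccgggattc
Of 33 promoters in this list 5 (15.2%) held the letters, those of AARS1, CARS1, CHAC1, FGF21 and HERPUD1, against 0.588% of all tested-gene promoters. Among the genes higher past the 0.32 threshold it was 1 of 82, and SLC7A11 was not in the table. The windows of SESN2, which passed that threshold, and of TRIB3 held no match and are not printed.

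Other lists gave smaller or mixed values. Of 31 hypoxia and glycolysis genes 13 were lower and 2 higher in both rounds, where 24.7% and 25.3% of all tested genes were; the oxygen sensor EGLN3 (11.06 and 10.69, then 11.46 and 11.13) was lower past the 0.32 threshold. Against the same shares, 9 of 18 MAPK feedback genes were higher and 1 lower, and the ephrin receptor EPHA4 (6.25 and 6.77, then 6.10 and 6.58) passed higher. Of 39 epithelial adhesion genes and keratins 17 were lower and 5 higher in both rounds, with medians of -0.14 and -0.0016; CLDN1, a tight junction claudin, was the 1 gene past the 0.32 threshold and was higher, with 7.25 and 8.998 in round 1 and 7.31 and 7.67 in round 2. In p53 targets the rounds disagreed, with medians of -0.030 and 0.34, although TIGAR (5.19 and 5.73, then 5.47 and 6.34) and SESN2 passed higher in both. Immediate early and heat shock genes likewise had medians of -0.11 and 0.39. Both stomach values of TIGAR were under the minimum, so TIGAR was tested only through its ovary values. None of 40 cell cycle genes passed the 0.32 threshold. Over all tested genes 0.667% passed it higher and 0.543% lower, so a count of 0 in that list is near those shares. MYC, amplified in SNU-16, was at 12.36 and 12.41 and then 11.96 and 12.35, and CD44 read 13.28 to 13.41 on all arrays.

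**Figure D4:**
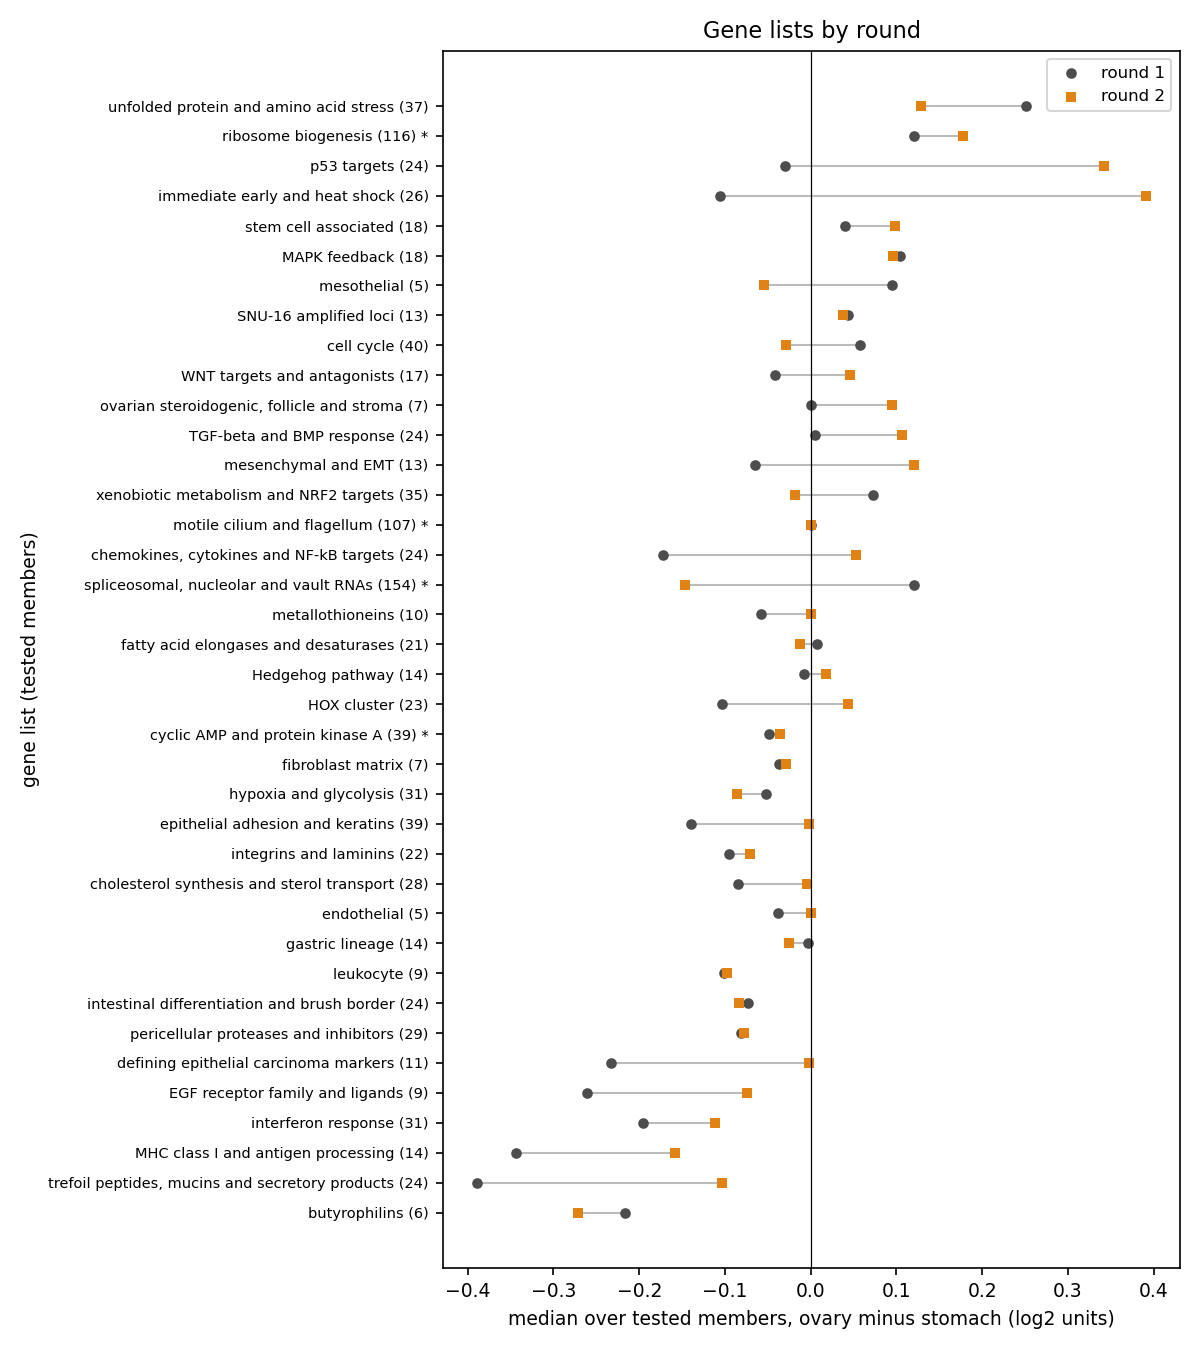
Median ovary minus stomach difference (log2 units) over the tested members of each gene list in round 1 (grey circles) and round 2 (orange squares), ordered by the median of the mean difference, with the number of tested members in brackets and an asterisk on the 4 lists drawn up after values had been seen. Stress and ribosome biogenesis medians lie right of 0 in both rounds, butyrophilins, trefoil and mucin, MHC class I and interferon medians lie left of it in both, and p53 and immediate early medians lie on opposite sides.

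Of the other cell types, none of the tested fibroblast (7), endothelial (5), ovarian (7) or mesothelial (5) genes passed the 0.32 threshold in either direction. Over all tested genes 0.667% passed higher and 0.543% lower, so in lists this small a count of 0 is near those shares. The median level over all 15 ovarian markers was 5.62 and 5.47 in stomach and 5.68 and 5.46 in ovary. STAR, a steroidogenic gene, read 5.68 to 5.88 and FOXL2, of granulosa cells, 6.49 to 6.85, neither past the 0.32 threshold.

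The 22 genes past 1.5-fold in opposite directions give the measure of how far single rounds disagree. PLK2, a stress-induced kinase, read 6.004 in stomach and 5.07 in ovary in round 1 and 6.20 and 7.79 in round 2. CCDC190 was at 6.49 and 5.24 and then 5.77 and 7.05, and ARRDC4, an alpha-arrestin, at 9.16 and 8.56 and then 9.09 and 9.85. In each of them the ovary line was the lower in round 1 and the higher in round 2. ARRDC3, in contrast, was lower in both, with 9.13 and 8.58 and then 9.95 and 8.78. Of the 11 genes higher in round 1 and lower in round 2, 10 were small nuclear, nucleolar or vault RNAs, among them RNU4-2 (7.30 and 8.90, then 8.01 and 6.95), and of the 11 with the reverse order 0 were. Such RNAs made up 154 of the 14547 tested genes. Their list was drawn up after the values were seen, so the count is a description only.

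Position in the genome set few of the agreeing genes side by side. Among 14530 genes placed in the RefSeq order, 2 pairs of neighbours passed the 0.32 threshold together: SAMD9 with SAMD9L on chromosome 7, lower, and CT83 with KLHL13 on chromosome X, higher. CT83, a cancer-testis antigen, read 5.58 and 6.21 and then 5.30 and 5.85, and KLHL13 5.39 and 7.07 and then 5.88 and 6.22. Their stomach means of 5.44 (CT83) and 5.636 (KLHL13) were under the minimum, so both genes were tested only through their ovary values. By chromosome, counts on the 0.32 threshold leaned either way, and none was tested. Chromosome X held 7 higher and 0 lower genes of 480 tested and chromosome 13 held 5 and 0 of 228, whereas chromosome 5 held 3 and 8 of 596, chromosome 6 held 3 and 8 of 728 and chromosome 21 held 0 and 3 of 169; over all tested genes 0.667% were higher and 0.543% lower.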

How the data were processed

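Per the labels' protocols, total RNA of cell pellets was taken up in TRIzol, and biotin was added with a WT Terminal Labeling Kit of Affymetrix. The authors deposited a table of log2 values with 33297 rows and 1 column per array. The submitters' processing notes name Affymetrix Expression Console, with its version, settings and normalization not given in the sources used here. Under scaling between arrays, a shift of all transcripts would not be visible. On at least 2 of the 4 arrays 11.1% of tested genes carried an identical value, among them CLDN7, at 11.27 on 3 arrays; the cause was not tested.

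Rows were named through GEO's platform annotation and updated to RefSeq (GRCh38.p14): 19460 rows carried 1 symbol (19429 found in RefSeq), 1754 several and 12083 none; the last 2 kinds were left out. Genes with a mean above the 30th percentile (5.64) were tested, which removed 3870 genes. Limma 3.58.1 in R 4.3.3 (lmFit, eBayes, two-sided, Benjamini-Hochberg) was fitted on all 4 arrays, ovary minus stomach, and tested on simulated data. Replicate numbers are rounds, which both sites share; deviations of same-numbered arrays correlated at 0.411 (2 pairs), and the fit with the round as a block stands beside the one without it. Alternatives were the round as a block, other signal minima, quantile or median scaling, other probe sets, other priors, thresholds and leaving out each array. Named genes are the 25 highest and 25 lowest by the smaller within-round difference of equal sign, list members past 0.32 log2 units in both rounds, their families, a panel and neighbours; genes opposing between rounds and further list members were named after their values were seen. Members and lists were chosen with earlier results of these data known, and 4 lists after the values were seen. Figures were drawn with matplotlib 3.10.9.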

Additional observations from a re-analysis of the deposited data

How the results depend on the processing

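Limma called 0 genes under each alternative, a replicate block included, with smallest adjusted p-values of 0.122 to 1. The block changed no other call. Of the 19 agreeing genes, 19 were shared with no signal minimum, 19 with other probe sets, 19 with centring on medians (of 21), 16 with quantile normalization (of 18) and 13 with a minimum at the 50th percentile. The higher count of 13 became 7 with that minimum, 97 at 0.32 log2 units, 1 at 2-fold and 3 where both ovary arrays had to pass both stomach arrays by 1.5-fold; the lower count of 6 became 79, 0 and 3 under the last 3. In round 1 alone 133 were higher and 162 lower, and in round 2 alone 117 and 61, counts added after seeing the data. Agreement counts could not be given without an array, since each round has 1 array per site.

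Quantile normalization turned the difference of CD44 to -0.0078 and of CDH1 to 0.011. Leaving out 1 array gave ranges that crossed 0 for CD44 (-0.0088 to 0.084), CDH1 (-0.082 to 0.045), DKK1 (-0.23 to 1.95), FGFR2 (-0.036 to 0.011), SAMD9 (-1.71 to 0.11), TIMP2 (-0.79 to 0.013) and ZFP42 (-0.20 to 1.86). The array left out was round 2 ovary for DKK1 and ZFP42, round 1 ovary for FGFR2, SAMD9 and TIMP2, and round 1 ovary or round 2 stomach for CD44 and CDH1. The other 1200 of 1211 values kept their direction. List medians that moved by more than the spread between rounds under quantile normalization were those of intestinal genes (-0.080), MAPK feedback (0.089), fatty acid genes (0.0073, from -0.024) and pericellular proteases (-0.070, and -0.080 with other probe sets). The cause was not tested. With 2 arrays per site, and 4 of the 19 genes with a site mean under the signal minimum, folds of dim genes are the least firm.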

Other observations

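A list of 116 tested ribosome biogenesis genes was drawn up after 7 of its members had been seen among the genes higher in ovary, so its values are a description only. Of the 116 genes, 83 were higher and 5 lower in both rounds, where 25.3% and 24.7% of all tested genes were. In 50 both ovary arrays lay above both stomach arrays, with 0 in the reverse order. Of all tested genes 13.4% and 11.2% had those orders. The steps were small, with a list median of 0.12 in round 1 and 0.18 in round 2, and 0.14 under quantile normalization against 0.16 as deposited for the mean difference. NOP2, an rRNA methyltransferase, read 7.99 in stomach and 8.39 in ovary in round 1 and 7.65 and 8.04 in round 2. URB2, a nucleolar ribosome biogenesis factor, was at 7.74 and 8.10 and then 7.68 and 8.32, HEATR3, which escorts ribosomal protein L5, at 7.10 and 7.68 and then 7.02 and 7.43, and the helicase DDX21 at 10.18 and 10.49 and then 9.97 and 10.44. The sites did not overlap in these 4 genes. The 5 genes lower in both rounds were IMP3, NOL3, POLR1D, POLR1H and RIOK2; NOL3, despite its symbol, encodes an inhibitor of apoptosis. MYC, known to drive this programme, differed by 0.05 and 0.40.

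Small nuclear, nucleolar and vault RNAs, also listed after the values were seen, had a median difference of 0.12 in round 1 and -0.15 in round 2 over 154 tested genes. Of these, 72 (46.8%) were higher in round 1 and lower in round 2, against 19.8% of all tested genes. Among 107 genes of motile cilia and flagella, a list drawn up after such genes had been seen among those ranked highest, 27 were higher and 27 lower in both rounds and the medians were 0, while 5 passed 0.32 log2 units higher in both, CEP41, CFAP44, SPATA17, MNS1 and KIF9, and none lower, where 0.667% of all tested genes were higher and 0.543% lower. These 5 genes are all among the 25 ranked highest, which led to the list, so the count supports nothing. Of 39 genes of cyclic AMP and protein kinase A signalling, likewise listed after values were seen, 5 were higher and 18 lower in both rounds. Of all tested genes 25.3% and 24.7% were. The list medians were -0.049 and -0.036.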
